A study of Mus musculus with 6 samples.

Results

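Angiotensinogen (Agt), the vitamin D-binding protein (Gc), transthyretin (Ttr), retinol-binding protein 4 (Rbp4), apolipoprotein E (Apoe) and clusterin (Clu) are secreted proteins best known from blood plasma, where the liver supplies much of them. Their 6 genes were taken by symbol from a table of 21652 genes, and each symbol matched 1 row. The readout was ribosome profiling of MIN6, a beta-cell tumour line of the mouse that stores and secretes insulin. The cells expressed the guide sgNT, read here as a control without a target, in 3 libraries, or the guide sgLTN1 against Ltn1 in another 3, and all 6 carry the same batch label. The labels state no drug treatment. They do not say whether the cells were a clone or a pool, nor whether the libraries were grown separately, so the spread between them may be technical. The genes were chosen by their footprint levels and their sgLTN1 against sgNT differences in earlier results of these data. The values of that contrast are therefore a description of the members, without a test of them.

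Plasma carriers are made with a signal peptide, enter the endoplasmic reticulum during translation and leave the cell through the secretory pathway. Transthyretin carries thyroid hormone and holds the retinol-loaded retinol-binding protein 4 in the circulation. Agt, a member of the serpin family without inhibitor activity, is the precursor from which renin releases angiotensin I. Apolipoprotein E and clusterin, also known as apolipoprotein J, bind lipids and are taken up through lipoprotein receptors. Ltn1 encodes Listerin, a ubiquitin ligase that marks incomplete nascent chains on stalled ribosomes, including ribosomes engaged at the endoplasmic reticulum.

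Promoter sequence is shown for Agt and Gc, the pair of carriers whose footprints followed the most similar course over the libraries. RefSeq promoter windows were matched for 4 members, Agt, Gc, Rbp4 and Apoe. Each line gives the 250 bases before the annotated start, 5′ to 3′, in the RefSeq build GRCm38.p6, and capitals mark letters matched by one of the searched motifs.
Agt, chr8:124569707-124569956, minus strand: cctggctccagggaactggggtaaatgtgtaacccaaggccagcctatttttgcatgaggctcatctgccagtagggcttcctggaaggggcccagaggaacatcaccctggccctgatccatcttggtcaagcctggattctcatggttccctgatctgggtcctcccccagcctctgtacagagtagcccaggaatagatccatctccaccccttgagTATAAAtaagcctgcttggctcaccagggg
Gc, chr5:89457899-89458148, minus strand: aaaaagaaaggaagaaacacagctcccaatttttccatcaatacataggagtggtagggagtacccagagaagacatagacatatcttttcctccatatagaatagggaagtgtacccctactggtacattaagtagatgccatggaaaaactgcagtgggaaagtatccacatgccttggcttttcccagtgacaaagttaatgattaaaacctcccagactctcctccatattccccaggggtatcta

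The 4 motifs reported were chosen with these sequences in view, and both strands were searched in the 250 bases of all 32851 windows. The TATA letters TATAAA occurred in 12.4% of windows and in that of Agt, beginning 30 bases before the start, and not in that of Gc. It was also found in 1 of the 2 windows of Rbp4, beginning 28 bases before the start, and in 1 of the 3 windows of Apoe. The letters TGTTTAC for FOXA factors (3.17% of windows), TTGCNNAA for C/EBP factors (9.56%) and the E-box CACGTG (6.02%) matched in neither Agt nor Gc, so the line of Gc has no capitals. FOXA and C/EBP letters matched in 1 window of Rbp4 each. These matches describe letters and not bound sites.

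Gene totals ranged from 4373467 to 7802364 counts in the sgNT libraries and from 4993245 to 11198735 in the sgLTN1 libraries. Where a gene is given a pair of counts below, they are sums over the sgNT and over the sgLTN1 libraries. The sgLTN1 libraries are deeper in sum, so such a pair gives no direction by itself. Levels are given in CPM, which are counts divided by the scaled library size. No coding lengths were used, so the level of a carrier is compared mainly between libraries. Where genes are set against each other, their counts or CPM are not corrected for length. Footprints on Ltn1 (ENSMUSG00000052299.10), the gene the guide names, left 0.469 of the control level. Of 12782 genes with enough counts, 23 (0.18%) differed at an adjusted p of 0.05, 11 of them higher and 12 lower in sgLTN1, and 47.3% had a log2 fold change above 0. With plain library totals in place of scaling factors the split was 8 higher and 34 lower, and with the trend by abundance removed it was 7 and 13. Footprints combine the amount of an mRNA with its occupancy by ribosomes, and RNA-seq was not used here. In such bulk lysates fewer cells of a type and less RNA per cell cannot be told apart.

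MIN6 libraries held many beta-cell footprints, with summed levels of the 12 beta-cell markers from 100636 to 122091 CPM over all 6 libraries, although Slc2a2 and Ucn3 had 35 and 12 counts in all. Hepatocyte markers were near 0. The 12 markers together came to 17.9 to 22.7 CPM in sgNT and 17.0 to 19.3 CPM in sgLTN1, and albumin (Alb), the defining liver carrier, read 4.03 ± 2.68 and 4.52 ± 0.316 CPM (mean ± SD, n = 3 per group).

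Agt, Gc, Ttr and Clu had from 1487 to 48000 counts per library and were higher in every sgLTN1 library than in every sgNT library. Rbp4 and Apoe, in contrast, gave at most 51 and 10 counts in any library. The label of carriers made by MIN6 cells thus fits the first 4 genes by their counts and is weakly backed for Rbp4 and Apoe. The 6 genes together took 0.50% to 0.532% of the counts in the sgNT libraries and 0.616% to 0.660% in the sgLTN1 libraries, most of it from Ttr.

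**Figure D1:**
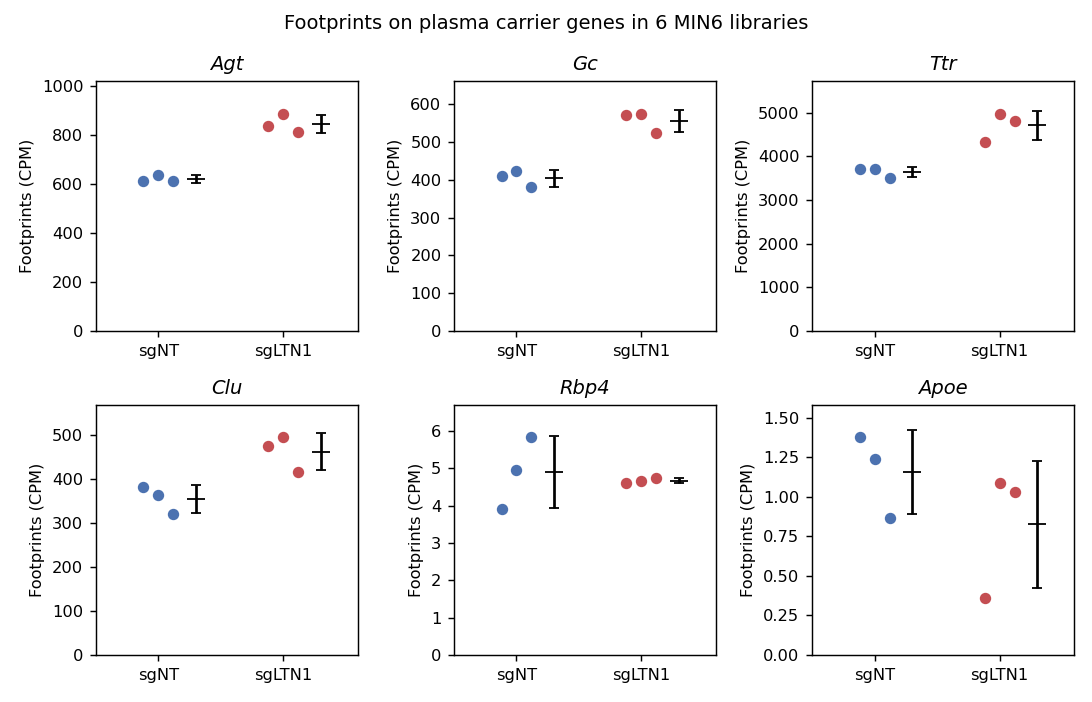
Footprints on each carrier gene in CPM (vertical axis, from 0, with its own scale in each panel) in the 3 sgNT and 3 sgLTN1 libraries, drawn as points in the order of their library numbers, with the mean and SD at the right of each group. The groups are apart for Agt, Gc, Ttr and Clu and overlap for Rbp4, which stays below 6 CPM, and for Apoe, which stays below 2 CPM.

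Agt (ENSMUSG00000031980.11) read 615, 638 and 612 CPM in sgNT libraries 1 to 3, from 2684, 5161 and 2836 counts. In sgLTN1 libraries 1 to 3 it read 839, 889 and 813 CPM, from 9289, 8186 and 3957 counts. All 3 sgLTN1 values lay above all 3 control values, and the lowest of them was 1.27 times the highest control. The group means, 622 ± 14.5 and 847 ± 38.6 CPM, stood in a ratio of 1.36, a log2 fold change of 0.45 (SE 0.06). The SD was 2.33% of the mean in sgNT and 4.56% in sgLTN1, far below the distance between the groups.

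Gc (ENSMUSG00000035540.13) encodes the albumin-family protein that carries vitamin D metabolites and also binds actin released from damaged cells. It read 409, 424 and 380 CPM in the sgNT libraries. The sgLTN1 libraries read 570, 575 and 523 CPM, again with no overlap and with the lowest sgLTN1 value 1.23 times the highest control. Means were 404 ± 22.2 and 556 ± 28.9 CPM, a ratio of 1.37 and a log2 fold change of 0.46 (SE 0.06). Library 3 was the lowest of its group on both sides.

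Ttr (ENSMUSG00000061808.5), which islet cells are known to express besides liver and choroid plexus, took 0.364% to 0.384% of all counts in sgNT and 0.429% to 0.473% in sgLTN1. Its level was 3706, 3703 and 3515 CPM in sgNT libraries 1 to 3. It was 4333, 4976 and 4809.7 CPM in sgLTN1 libraries 1 to 3, so the lowest sgLTN1 library stood 1.17 times above the highest control. The ratio of the means was 1.29, with a log2 fold change of 0.37 (SE 0.06). Unlike Agt, Gc and Clu, whose lowest sgLTN1 value came from library 3, Ttr was lowest in sgLTN1 library 1. RefSeq places 1 other gene, Gm16090, over Ttr. The settings for strand and for overlapping genes are not given, so how reads over both genes were assigned is not known.

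Clu (ENSMUSG00000022037.16) encodes a secreted chaperone that keeps misfolding proteins in solution outside the cell. It read 383, 365 and 321 CPM in the sgNT libraries and 477, 496 and 416 CPM in the sgLTN1 libraries. The groups did not overlap, but the lowest sgLTN1 value was 1.09 times the highest control, the narrowest gap of the 4 higher carriers. The means of 356 ± 31.8 and 463 ± 41.8 CPM gave a ratio of 1.3 and a log2 fold change of 0.38 (SE 0.08). Its SD was 8.92% of the mean in sgNT and 9.04% in sgLTN1, wider than for Agt, Gc or Ttr.

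Rbp4 (ENSMUSG00000024990.14), the plasma carrier of retinol, read 3.90, 4.95 and 5.82 CPM in sgNT from 17, 40 and 27 counts. In sgLTN1 it read 4.6, 4.67 and 4.73 CPM from 51, 43 and 23 counts. Every sgLTN1 value fell inside the control range. The log2 fold change was -0.08 (SE 0.20). From the summed counts, 84 and 117, the ratio of rates was 0.946, with an exact 95% interval from 0.709 to 1.27 for counting error alone, to which the spread between libraries adds. The difference between Rbp4 and the other carriers was not tested.

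Apoe (ENSMUSG00000002985.17), the ligand through which lipoprotein remnants are cleared, had 6, 10 and 4 counts in sgNT and 4, 10 and 5 counts in sgLTN1. These are 1.38, 1.24 and 0.863 CPM against 0.361, 1.09 and 1.03 CPM, and the groups overlap. It was the 1 member that did not pass the filter on low counts, so it has no fitted value. The ratio of rates was 0.645, with an exact 95% interval from 0.326 to 1.27. The interval, for counting error only, holds both no difference and a large fall.

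In the fit over all genes, 3 of the 5 tested members, Agt, Gc and Ttr, passed the threshold in the upward direction, where 0.0861% of tested genes did. No member passed downward, where 0.0939% of genes did. Groups did not overlap, with sgLTN1 higher, for 4 of the 5 tested members and for 10.1% of tested genes. As the members were picked with this contrast in view, nothing is read from those counts. The median log2 fold change was 0.38 over the 5 tested members and -0.0155 over all tested genes. In the authors' deposited table, the log2 fold changes were 0.47 (SE 0.08) for Agt, 0.48 (SE 0.08) for Gc, 0.39 (SE 0.08) for Ttr and 0.40 (SE 0.10) for Clu. All 4 were among its 183 higher calls, which are 6.79% of the 2697 genes given an adjusted p there, while Rbp4 (-0.05, SE 0.34) and Apoe (-0.52, SE 0.76) were given none.

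The size of the difference moved little when a library was left out, but calls near the threshold did. These calls, on the contrast that chose the genes, are a description too. Without one library at a time, Agt ranged from 0.42 to 0.48, Gc from 0.42 to 0.51, Ttr from 0.34 to 0.43 and Clu from 0.32 to 0.45. Agt was no longer past the threshold when the library left out was sgNT 1 (0.46), sgNT 2 (0.48), sgLTN1 1 (0.45) or sgLTN1 2 (0.42). Gc and Ttr lost the call without any one of the 3 sgNT libraries, sgLTN1 library 1 or sgLTN1 library 2. Clu gained it without sgLTN1 library 3 (0.45).

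**Figure D2:**
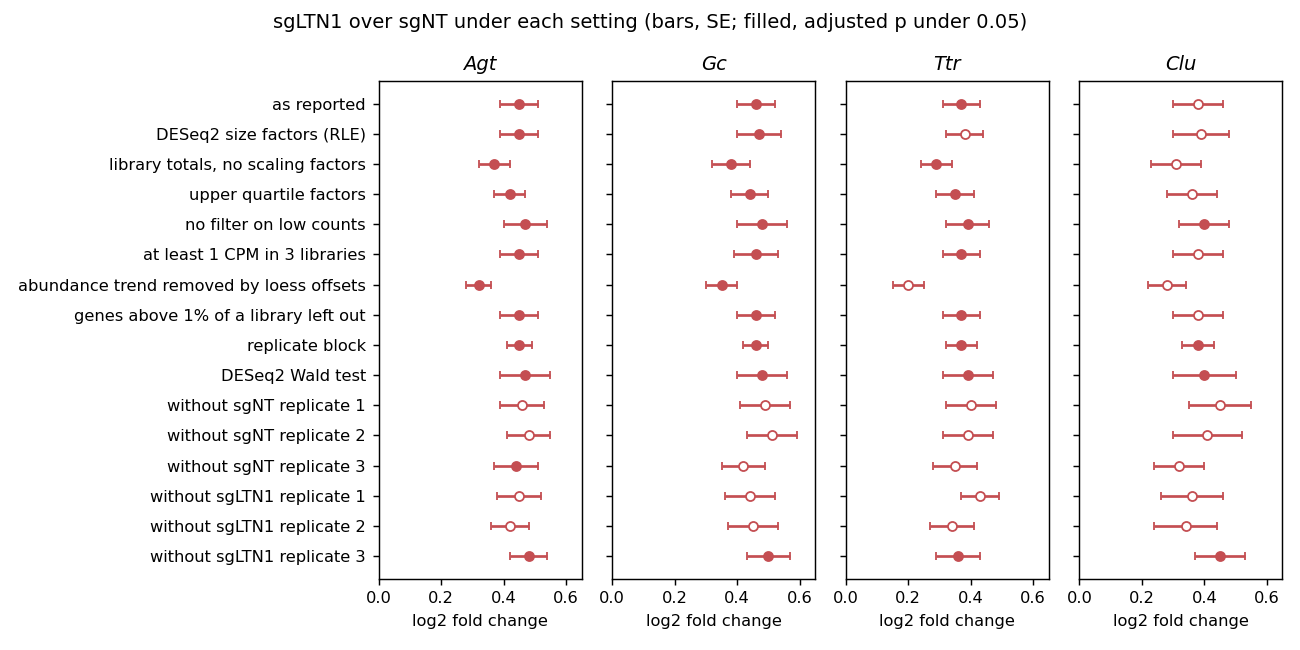
Log2 fold change of sgLTN1 over sgNT (horizontal axis, bars 1 SE) for Agt, Gc, Ttr and Clu as reported and under each of the 15 other settings (rows), with filled points where the adjusted p was under 0.05. Every value lies above 0, the lowest being 0.20 for Ttr with the abundance trend removed, and the points without one library are mostly open.

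Abundant genes as a class were higher in sgLTN1, and the 4 higher carriers are abundant, so each was set beside genes within 0.5 of its own log2 CPM. Around Agt there were 139 such genes, with a median log2 fold change of 0.15 and 85.6% above 0. Around Gc the median of 188 genes was 0.14, and around Clu that of 225 genes was 0.13. Ttr had 23 neighbours in abundance, whose median was 0.17 with 95.7% above 0. The distance from the neighbours' median was 0.30 for Agt, 0.32 for Gc, 0.25 for Clu and 0.20 for Ttr. The carriers were chosen by this difference, so their place above their neighbours is a description and not evidence that they exceed the trend.

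Rbp4 lay with the scarce genes, close to the median of its 2146 neighbours (-0.07). With the trend by abundance removed from each library before the fit, Agt stood at 0.32 (SE 0.04) and Gc at 0.35 (SE 0.05), both still past the threshold. Ttr stood at 0.20 (SE 0.05) and was no longer past it, and Clu stood at 0.28 (SE 0.06). The part of the trend in the carriers' difference was not tested further.

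**Figure D3:**
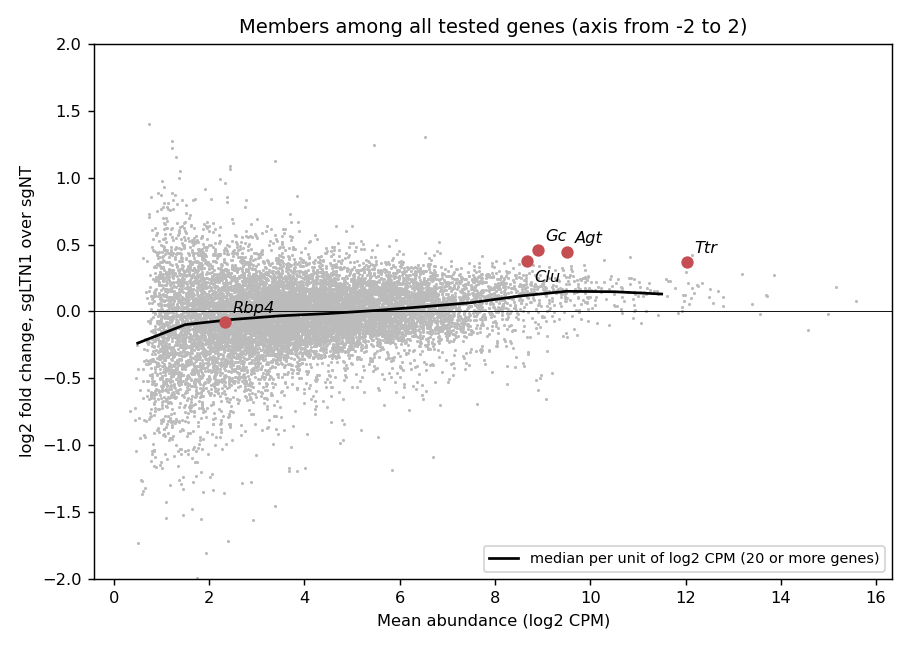
Log2 fold change of sgLTN1 over sgNT (vertical axis, drawn to 2 on either side of 0) against mean abundance in log2 CPM (horizontal axis) for the tested genes in grey, with the 5 tested carriers in red and the median per unit of abundance as a black line. Agt, Gc, Clu and Ttr sit above the line among abundant genes, whose medians are themselves above 0, and Rbp4 sits on the line.

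The profiles of the 4 higher carriers over the 6 libraries were also set beside each other. Likeness was measured as the root mean square distance between log2 CPM profiles, each centred on its own mean. Agt and Gc lay 0.042 apart, Gc and Clu 0.070, Agt and Ttr 0.071, and Ttr and Clu 0.114. Among genes of at least 10 CPM, Gc was also the closest of all to Agt, followed by Dpp4, the peptidase that inactivates incretins (0.042), and Slc39a11, a zinc transporter gene (0.045). Among the closest to Gc were Dlk1, which encodes an imprinted transmembrane protein (0.040), and Agt. The closest to Ttr were Mfsd8, a lysosomal membrane protein gene (0.046), Csn3, which encodes kappa-casein (0.048), and Abhd2, a lipid hydrolase gene (0.053). These distances describe 6 libraries and say nothing of shared control. They include the sgLTN1 against sgNT difference that chose the genes, and whether the carriers differ from each other was not tested.

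Footprints on islet hormones other than insulin bear on Ttr, Gc and Rbp4, which are known from alpha or delta cells as well as from liver. The alpha-cell hormone gene Gcg stood at 562 ± 14.5 CPM in sgNT against 566 ± 34.7 CPM in sgLTN1 (log2 fold change 0.01, SE 0.06, adjusted p = 0.963 in edgeR). The 9 alpha-cell markers summed to 1896 to 1998 CPM in sgNT, against 1809 to 1822 CPM in sgLTN1, the direction opposite to that of Ttr and Gc. The 5 delta- and PP-cell markers summed to 34.6 to 37.8 CPM in sgNT and 48.1 to 56.1 CPM in sgLTN1, led by the somatostatin gene Sst, at 30.4 ± 1.42 and 43.3 ± 3.65 CPM (0.50, SE 0.09, adjusted p = 0.062 in edgeR). The pancreatic polypeptide gene Ppy stood at 3.30 ± 1.07 and 6.09 ± 1.02 CPM. The factor gene Hhex, scarce at 23 counts in each group, was lower in every sgLTN1 library (1.38 ± 0.198 and 0.965 ± 0.243 CPM), and the receptor gene Sstr1 stood at 1.03 ± 0.513 and 0.971 ± 0.344 CPM. The sum thus followed its hormone genes in the direction of the higher carriers, and its part in their difference was not tested.

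Markers of other cell types that a culture could hold were scarce. Over all libraries the sums were at most 14.8 CPM for 11 acinar markers, 24.8 CPM for 9 fibroblast markers, 65.8 CPM for 9 macrophage markers, most of it Cd68 and C1qa, and 9.86 CPM for 6 endothelial markers. Of these, the acinar sum was 8.41 to 9.28 CPM in sgNT and 8.85 to 14.8 CPM in sgLTN1, and the macrophage sum was lower in sgLTN1 (52.0 to 55.7 CPM) than in sgNT (56.5 to 65.8 CPM). The 7 duct markers reached 1893 to 2036 CPM in sgNT and 2076 to 2225 CPM in sgLTN1, almost wholly from Spp1, which encodes the secreted phosphoprotein osteopontin, while the duct keratin genes Krt7 and Krt19 had 116 and 172 counts and 4 and 5 counts. The part of these markers in the carriers' difference was not tested.

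Most other plasma proteins of liver type were hardly footprinted. Of 20 further carriers of small ligands, 7 had enough counts to be tested, none passed the threshold, and 5 were above 0 with a median log2 fold change of 0.14, against -0.0155 for all tested genes. The highest in CPM were Igfals, which stabilises circulating insulin-like growth factor, at 180 ± 6.54 and 227 ± 7.49 CPM (0.33, SE 0.06, adjusted p = 0.0661), the selenium carrier Selenop (0.14, SE 0.08) and the copper carrier ceruloplasmin, Cp (-0.57, SE 0.27). Igfals was higher in every sgLTN1 library than in every control. Of the relatives of Gc in the albumin family, Afp had 9 and 15 counts and Afm 20 and 25 counts over the sgNT and the sgLTN1 libraries.

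Apolipoproteins other than Clu were scarce. Of 25 apolipoprotein and lipoprotein-assembly genes, 8 were tested, none passed, and 5 were below 0 with a median of -0.08. The 3 highest in CPM were Lpl, the lipoprotein lipase, at 122 ± 4.39 and 110 ± 3.66 CPM (-0.14, SE 0.07), the mitochondrial protein gene Apoo (0.00, SE 0.09) and Mttp, which loads lipid onto nascent lipoproteins (0.16, SE 0.11). Apoc1, a neighbour of Apoe in the genome, had 27 and 23 counts. Of 23 serpin genes beside Agt, 14 were tested, none passed and 8 were below 0, with a median of -0.03. Serpini1, the neuroserpin gene, read 427 ± 23.9 and 471 ± 38.7 CPM (0.14, SE 0.07), Serpina3n 250 ± 10.4 and 272 ± 10.3 CPM (0.12, SE 0.06) and Serpinb6a, which stays inside the cell, 169 ± 14.2 and 164 ± 7.50 CPM (-0.04, SE 0.08).

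Coagulation and complement genes, the other large class of liver secretion, gave 8 tested genes of 40, none past the threshold and 6 below 0, with a median of -0.22. Crp, the C-reactive protein gene, read 97.7 ± 4.43 and 108 ± 7.35 CPM (0.15, SE 0.07), C1qa 27.2 ± 2.31 and 22.5 ± 2.23 CPM (-0.28, SE 0.11) and Fgg, the fibrinogen gamma chain, 25.0 ± 6.48 and 38.9 ± 7.12 CPM (0.64, SE 0.17, adjusted p = 0.144 in edgeR).

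The genes that act on Agt showed no call. Of 21 genes of the renin-angiotensin system, 11 were tested and 8 were above 0, with a median of 0.06. Atp6ap2, the prorenin receptor and a V-ATPase subunit, read 5934 ± 381 and 6206 ± 388 CPM (0.06, SE 0.06), the lysosomal protease Ctsd 2623 ± 186 and 2870 ± 165 CPM (0.13, SE 0.07) and the angiotensin IV-binding aminopeptidase Lnpep 96.2 ± 9.93 and 106 ± 11.0 CPM (0.15, SE 0.10). The renin gene Ren1 had 5 and 2 counts over the groups, the angiotensin receptor gene Agtr1a 6 and 8, and the converting enzyme Ace 80 and 105. In CPM, Ace read 4.66 ± 0.494 and 4.38 ± 0.932 (-0.13, SE 0.23).

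Vitamin D genes, the setting of Gc, had 8 of 16 tested, none past the threshold, 5 above 0 and a median of 0.10. Pdia3 read 2980 ± 138 and 3230 ± 147 CPM (0.12, SE 0.06). Dhcr7, which uses up the vitamin D precursor in cholesterol synthesis, read 190 ± 12.4 and 222 ± 6.67 CPM (0.23, SE 0.07), and Rxra read 14.9 ± 10.7 and 18.1 ± 5.37 CPM (0.40, SE 0.37). The vitamin D receptor gene Vdr had 51 and 87 counts, and Lrp2, the megalin gene through which cells take up Gc, 178 and 180. In CPM, Vdr read 3.12 ± 0.602 and 3.45 ± 0.279 (0.19, SE 0.25), and Lrp2 read 10.4 ± 2.58 and 7.76 ± 2.4 (-0.49, SE 0.23).

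Of 19 thyroid hormone genes, the setting of Ttr, 13 were tested, none passed and 9 were above 0, with a median of 0.09. Slc16a10 read 88.8 ± 14.4 and 119 ± 12.1 CPM (0.42, SE 0.11), Slc7a5 468 ± 22.8 and 496 ± 19.2 CPM (0.09, SE 0.06) and Thrap3 99.0 ± 4.37 and 90.6 ± 5.22 CPM (-0.12, SE 0.07). Of 25 retinoid genes, the setting of Rbp4, 10 were tested, none passed and 6 were below 0, with a median of -0.03. Rdh11 read 128 ± 1.54 and 143 ± 3.16 CPM (0.15, SE 0.06), Bco2 31.7 ± 2.42 and 36.9 ± 8.66 CPM (0.20, SE 0.16) and Dhrs3 23.5 ± 1.09 and 23.0 ± 3.49 CPM (-0.01, SE 0.12), while Stra6, the receptor for Rbp4, had 33 and 27 counts.

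Receptors of apolipoprotein E and clusterin, with the genes of lipid export, were widely footprinted. Of 27, 25 were tested and 18 were above 0, with a median of 0.16, and none passed the threshold. The receptor chaperone gene Lrpap1 read 490 ± 21.2 and 505 ± 22.4 CPM (0.04, SE 0.06). For 8 of the 25 the groups did not overlap with sgLTN1 higher, and for 2 with sgLTN1 lower, against 10.1% of all tested genes in either direction taken singly. Their median abundance was 5.92 log2 CPM, and the part of the trend by abundance in their differences was not tested.

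Of 29 transcription factor genes of liver and islet, 18 were tested, none passed the threshold and 13 were below 0, with a median of -0.09. They are scarce, with a median abundance of 2.39 log2 CPM, and around Rbp4, at 2.34, 39.5% of genes were above 0. Foxa2 read 46.1 ± 3.59 and 43.1 ± 2.88 CPM (-0.11, SE 0.09), Creb3l3 36.0 ± 3.07 and 39.5 ± 2.09 CPM (0.12, SE 0.09) and Dbp 23.7 ± 2.25 and 19.3 ± 0.360 CPM (-0.28, SE 0.10). Hnf4a had 22 counts in each group, too few for a test. Over the 10 lists 122 distinct genes were tested and 0 passed in edgeR, where 0.18% of all tested genes did, so 0 in lists of this size is near the background. At an unadjusted p under 0.05 edgeR gave 24 of the 122, against 15.6% of all tested genes. DESeq2 gave 37 list genes an adjusted p and called 8, against 8.42% of all genes it gave one.

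**Figure D4:**
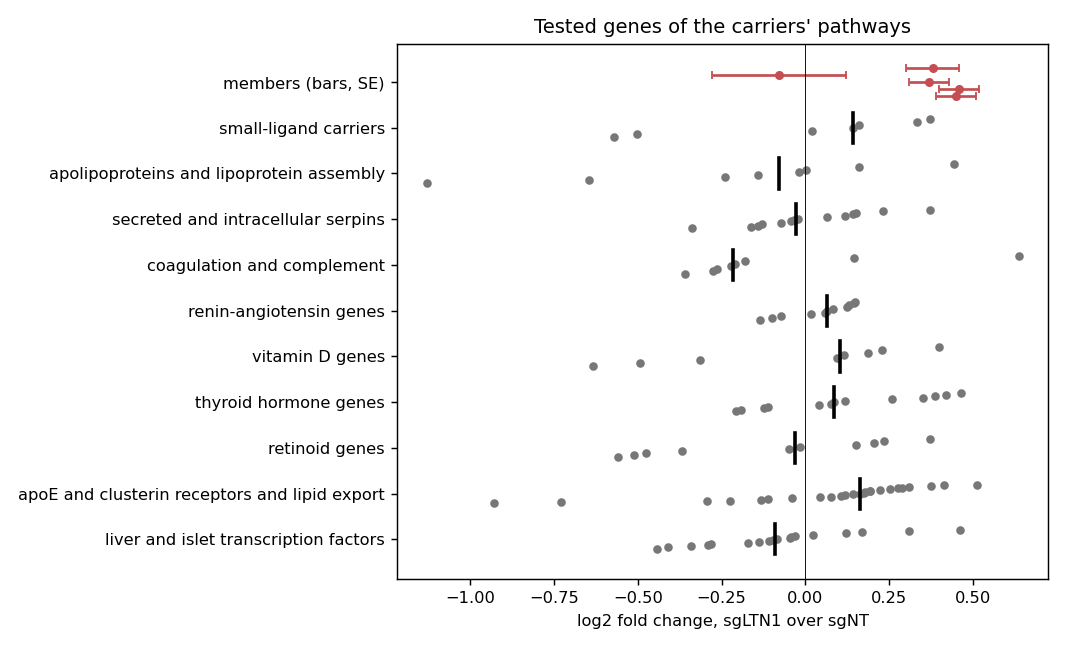
Log2 fold change of sgLTN1 over sgNT (horizontal axis) for the tested genes of the 10 pathway lists (grey points, 1 row per list, black bar at the median) and for the 5 tested carriers (red, bars 1 SE). The list medians run from -0.22 (coagulation and complement) to 0.16 (receptors and lipid export), and Agt, Gc, Ttr and Clu lie between 0.37 and 0.46. Single list genes run from -1.13 (Pltp) to 0.64 (Fgg), so some lie above the carriers.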

How the data were processed

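Ribosome-protected fragments were sequenced from 6 MIN6 libraries. The authors deposited whole-number read counts per gene with Ensembl identifiers and symbols. The submitters' processing notes list STAR 2.7.11a, featureCounts 2.12.3, Bowtie2 2.5.4, UMI-tools 1.1.2, fastp 0.23.4, SAMtools 1.9 and DESeq2 1.38.3, with build GRCm39. Strand setting, annotation and treatment of multi-mapped reads are not given in the sources used. Another file deposited by them has, per the file headers, the DESeq2 log2 fold change, a mean normalized signal, a Wald score and p-values.

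Here, counts were tested in R 4.3.3 with edgeR 4.0.16 (limma 3.58.1) after filterByExpr. TMM factors were 1 to 1.04 in sgNT and 0.954 to 0.992 in sgLTN1, so they split by group. The quasi-likelihood test had group as the only term, with Benjamini-Hochberg adjustment over 12782 genes at a threshold of 0.05. The SE is the log2 fold change over the root of its F statistic. Log CPM profiles took a prior count of 2. DESeq2 1.42.0, other scalings and filters, a loess offset (span 0.3), a replicate block and each library left out were alternatives. Intervals are exact at 95% and cover counting error only, since reads may not be independent molecules.

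The members, lists and alternatives were chosen with earlier results of these data known. Named genes are the members, Ltn1, the 3 list genes highest in CPM in sgNT and any past the threshold, and the 3 nearest profiles of Agt, Gc and Ttr; others are partners or exceptions looked up after their values were seen. Some genes picked by that rule and 1 motif are not reported here. One listed symbol was matched through RefSeq synonyms. Levels per coding length and protein features were planned and are not analysed here, as no protein or coding lengths were at hand.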

Additional observations from a re-analysis of the deposited data

How the results depend on the processing

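Agt, Gc, Ttr and Clu were above 0 under all 15 alternatives, Agt between 0.32 and 0.48, Gc between 0.35 and 0.51, Ttr between 0.20 and 0.43 and Clu between 0.28 and 0.45. Among the 9 alternatives that kept all libraries, Agt and Gc passed in each, and Ttr failed with DESeq2 size factors (0.38) and without the abundance trend (0.20). Clu passed with no filter (0.40), in the DESeq2 test (0.40) and with the replicate block (0.38). With library totals and no scaling factors, Agt stood at 0.37, Gc at 0.38, Ttr at 0.29 and Clu at 0.31. With one library left out, Agt ranged from 0.42 to 0.48, Gc from 0.42 to 0.51, Ttr from 0.34 to 0.43, Clu from 0.32 to 0.45 and Rbp4 from -0.17 to 0.04, the latter without sgNT library 3, and Apoe, as a ratio of mean CPM, from -0.73 to -0.13. The Apoe ratio had no value with loess offsets or the block. The count of genes past the threshold, 23 as reported, was 42 with library totals, 222 with no filter, 227 in DESeq2 and 4 (without sgLTN1 library 2) to 333 (without sgLTN1 library 3) with one library left out. It was 609 with the replicate block. Deviations of same-numbered libraries correlated at -0.048, 0.067 and 0.088, and those of differently numbered libraries at -0.119 to 0.095. With 3 libraries per group, these correlations cannot decide whether library numbers pair the samples. The causes of these changes were not tested. Depth limits Rbp4 and Apoe.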

Other observations

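For some plasma protein complexes a single subunit gene held most of the counts, an observation made after the values were seen. Overlapping genes were looked up for the members only, so the origin of these counts was not tested. Of the 3 fibrinogen chain genes, Fgg had 411 counts over the sgNT libraries and 933 over the sgLTN1 libraries, whereas Fga had 3 and 15 and Fgb 5 and 10. Of the 3 chain genes of complement C1q, C1qa had 458 and 557 counts, whereas C1qb had 13 and 37 and C1qc 1 and 5. The sgLTN1 libraries were deeper in sum. In CPM, sgNT against sgLTN1, Fgg read 25.0 ± 6.48 and 38.9 ± 7.12, and C1qa read 27.2 ± 2.31 and 22.5 ± 2.23. Transferrin (Trf) had 10 and 9 counts and haptoglobin (Hp) 7 and 9 over the same groups. Serpina7, which encodes the thyroxine-binding globulin, had 42 and 79 counts, with every sgLTN1 library above every control (2.43 ± 0.235 and 3.26 ± 0.601 CPM, log2 fold change 0.37, SE 0.26, adjusted p = 0.555 in edgeR).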
